A study of Mus musculus with 8 samples.

Results

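Hyaluronan is a long, unsulfated sugar chain of the extracellular matrix that binds much water. The genes described here build it, cut it or bind it at the cell surface. They are the synthases Has1, Has2 and Has3, the breakdown genes Hyal1, Hyal2, Cemip and Cemip2 (formerly Tmem2), and Cd44, which encodes the main hyaluronan receptor. The members were found by gene symbol in the raw count table, and all 8 were present among its 15288 genes. The symbol Tmem2 was not used in the table, because Cemip2 is the current name of that gene. Of the 8 members, 7 passed the filter on low counts and were tested, as were 14024 genes in all. Has1 did not pass.

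The samples were RNA from IMCD cells, a mouse cell line of the inner medullary collecting duct, the last stretch of the renal tubule. Cells were grown in medium with serum, to confluence by the growth description, and then kept for 12 h in serum-free DMEM. The control group (n = 4 libraries, replicates 1 to 4) had no added NaCl and the NaCl group (n = 4 libraries, replicates 5 to 8) had 100 mmol NaCl, an amount the labels give without a volume. Both groups share the cell line, the withdrawal of serum and the time. The labels name no genotype, clone or passage, and do not say whether libraries came from separate cultures, so p-values measure the spread between these libraries, which may be technical. The design asks how these cells respond to hypertonic medium.

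Hyaluronan synthases sit in the plasma membrane, join UDP-glucuronate and UDP-N-acetylglucosamine in turn, and push the growing chain out of the cell. HYAL2 at the cell surface and the transmembrane protein CEMIP2 start the cutting of long chains, CEMIP takes part in hyaluronan breakdown outside and at the cell, and HYAL1 cuts chains in the lysosome. CD44 binds hyaluronan outside the cell and links to the actin cortex inside. In the kidney, hyaluronan is most abundant in the interstitium of the inner medulla, and its amount there varies with the water balance of the animal.

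Libraries held between 35286796 and 47565623 counts. For the 12 pairs of libraries within a group, counts differed by more than counting error, with a chi-square per degree of freedom from 5.25 to 23.2 where counting error gives a value near 1, so no library was counted as a copy of another. The labelled cell type was compared with 14 markers of duct epithelium, all present in the table. Keratin genes and Epcam were well expressed (Krt18 at 217 ± 25.9 CPM and Epcam at 27.3 ± 3.18 CPM in control, SD, n = 4), but Aqp2, Aqp3 and Cdh1, which encode the vasopressin-regulated water channel, a basolateral water channel and E-cadherin, stayed under 1 CPM in every library. CPM stands for counts scaled to a common library size, computed on TMM-scaled totals. Avpr2, Hsd11b2 and Scnn1a of the same list were also low, at means of 0.108, 0.683 and 2.12 CPM in control. Its transcription factor genes Gata3, Hoxb7 and Tfcp2l1 were at 8.10, 71.4 and 130 CPM in control. No marker of intercalated cells was in the table (0 of 5). The fibroblast and interstitial cell list had 7 of 8 genes in the table, and Col1a1 was at 2492 ± 159.6 CPM in control. Fewer cells of a type and less RNA per cell cannot be told apart in bulk RNA.

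Of the 7 tested members, Has2 and Cd44 fell, Cemip2 rose slightly, and Hyal1, Hyal2, Cemip and Has3 did not pass the test. Those 3 calls were made at an adjusted p under 0.05 in edgeR's quasi-likelihood test, and among all tested genes the share called was 34.1%. The share called lower over all genes was 17.2%, and the share called higher was 16.9%. A count of 3 called among 7 is close to that background, and the members are therefore described gene by gene. The groups did not overlap for the same 3 members, where 33.4% of all tested genes had groups that did not overlap. The 7 members had a median log2 fold change of -0.07, and all tested genes one of 0.0029. The members' median ran from -0.28 without NaCl replicate 8 to 0.08 without control replicate 2, was also above 0 without NaCl replicate 6 (0.03) or 7 (0.06), and was -0.22 with limma-voom. The share of all genes called moved with the fit. It was 34.2% with median-of-ratios factors, 33.4% with library totals, 31.4% without a filter, 35.9% with at least 10 counts in every library, 36.6% with DESeq2, 34.1% with limma-voom and 22.4% at a threshold of 0.01. It was 24.1% with the library number as a linear term and 43% with that number centred within groups. Leaving out control replicates 1 to 4 gave 31.4%, 28.7%, 30.3% and 32.6%, and leaving out NaCl replicates 5 to 8 gave 30.6%, 28.9%, 29.4% and 30.7%.

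Has2 encodes the synthase known to make most hyaluronan in many cell types, and its transcript had the strongest fall of the members. Its level was 24.96, 22.6, 26.4 and 30.1 CPM in control replicates 1 to 4 and 8.48, 9.74, 11.1 and 13.8 CPM in NaCl replicates 5 to 8. Every NaCl library lay below every control library, and NaCl replicate 5 was the lowest. The group means were 26.0 ± 3.15 and 10.8 ± 2.29 CPM (SD, n = 4 each). With NaCl the transcript was 2.40-fold lower, a log2 fold change of -1.26 (SE 0.14, 95% interval -1.56 to -0.96, edgeR adjusted p = 2.99e-05). A called fall of at least 2-fold was found for 1.16% of tested genes, 163 in number, and Has2 was among them. Ranked by log2 fold change from the lowest, Has2 was 91st of 14024 genes. When the fit also held the library number as a linear term, its log2 fold change was -1.91, a larger fall. That term largely runs with group, since control libraries are replicates 1 to 4 and NaCl libraries 5 to 8. The group effect in that fit extends the slopes within groups, which for Has2 were 0.104 (control) and 0.230 (NaCl) log2 CPM per library. Values given with that term therefore cannot separate NaCl from library order.

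Has2 (ENSMUSG00000022367) lies on the minus strand at chr15:56665627-56694539 of GRCm38. The antisense gene Has2os overlaps 182 bases of its exons, which is 4.30% of their length, and the strandedness of the counts is not given in the sources used here. Has2os had at most 38 counts in any library, where Has2 had at least 304. The antisense transcript was called lower as well, from 0.743 ± 0.115 to 0.328 ± 0.128 CPM (log2 fold change -1.16, edgeR adjusted p = 0.0192). Without strand, counts in the shared stretch cannot be assigned to either gene.

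The other synthase genes were near the limit of detection. Counts of Has3 were 21, 29, 15 and 21 in control replicates and 22, 16, 7 and 31 with NaCl. Has3 shares 5.52% of its exon length with Chtf8 on the other strand, a gene with 15 to 38 counts per library, and without strand the counts in that stretch cannot be assigned to either gene. Its groups overlapped, and NaCl replicates 7 and 8 held its lowest and highest values. The log2 fold change was -0.07, with a 95% interval from -0.95 to 0.81 (edgeR adjusted p = 0.921). A change in either direction within that interval remains compatible with these low counts. Has1, which the filter removed, was counted 12, 1, 14 and 1 times in control replicates and 7, 3, 0 and 7 times with NaCl. In NaCl replicate 7 the count of 0 allows up to 0.0727 CPM. In a fit without the filter, Has1 was not called (log2 fold change -0.58, SE 0.89, edgeR adjusted p = 0.673). Per kilobase of exon, Has2 made up 98.2 ± 0.458% of the summed level of the synthases in control libraries, and 96.2 ± 2.31% with NaCl (SD, n = 4 each).

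Cd44 also fell with NaCl. Its level was 116, 111, 108 and 103 CPM in control replicates 1 to 4 and 64.7, 66.4, 70.7 and 68.9 CPM in NaCl replicates 5 to 8. The lowest control library was well above the highest NaCl library. The group means were 110 ± 5.66 and 67.7 ± 2.68 CPM (SD, n = 4 each). This was 61.7% of the control level, a log2 fold change of -0.70 (SE 0.044, 95% interval -0.79 to -0.60, edgeR adjusted p = 3.67e-09). A called fall at least as large as that of Cd44 was found for 2.15% of tested genes. Cd44 ranked 417th from the lowest of 14024 genes.

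Cd44 (ENSMUSG00000005087) lies on the minus strand at chr2:102811141-102901665 of GRCm38. The annotation gives it 9 transcripts, and the counts add them together, so the choice between standard and variable exons of CD44 was not measured. None of its exons overlap an exon of another annotated gene, and no other annotated transcript shared 75 bases at 98% identity with its longest transcript.

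**Figure D1:**
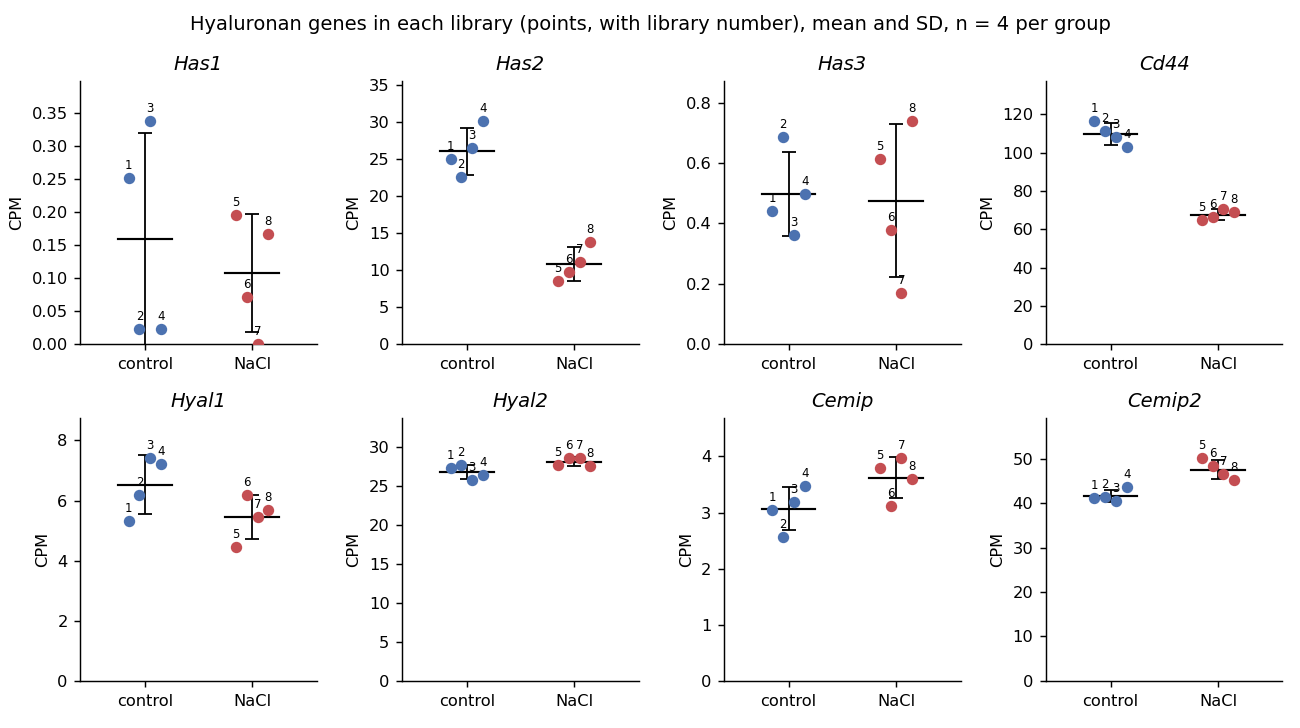
CPM of each member (vertical axes, linear, starting at 0 and scaled per gene) in the control and NaCl groups. Points are libraries with their number, the long bar is the mean and the whisker the SD (n = 4 per group). NaCl libraries of Has2 lie between 8.48 and 13.8 CPM and those of Cd44 between 64.7 and 70.7 CPM, all below their control libraries.

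The 250 bases before the annotated start of Cd44 are shown because Cd44 was the called member with an entry in the RefSeq promoter table of GRCm38.p6. Those of Cemip, which was not called, are shown for comparison. Entries were found for 5 of the 8 members (Has1, Hyal1, Hyal2, Cemip and Cd44). Capitals mark matches, on either strand, to the NFAT core TGGAAA, the AP-1 motif TGANTCA, the SP1 GC box GGGCGG, the TATA box TATAAA and the TEAD motif GGAATG. The Cd44 window is chr2:102901666-102901915 (minus strand) and the Cemip window is chr7:84086506-84086755 (minus strand), both written 5′ to 3′ along the gene.
Cd44: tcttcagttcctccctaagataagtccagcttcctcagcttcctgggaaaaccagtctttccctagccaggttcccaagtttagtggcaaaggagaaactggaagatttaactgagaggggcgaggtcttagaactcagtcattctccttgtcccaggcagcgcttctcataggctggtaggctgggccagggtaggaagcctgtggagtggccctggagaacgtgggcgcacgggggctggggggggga
Cemip: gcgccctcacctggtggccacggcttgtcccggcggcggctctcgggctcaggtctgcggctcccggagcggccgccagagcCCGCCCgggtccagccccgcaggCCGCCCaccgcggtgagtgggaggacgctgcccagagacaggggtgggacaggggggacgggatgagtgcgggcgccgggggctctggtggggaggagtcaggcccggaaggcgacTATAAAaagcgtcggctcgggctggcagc
The Cd44 window held a match to none of the 5 motifs. The Cemip window held 2 GC boxes and 1 TATA box, the latter beginning 29 bases before the start, and no other match. Over all 32851 windows of this length in the table, 18.6% held the NFAT core, 6.75% the AP-1 motif, 32.7% the GC box, 12.4% the TATA box and 12.6% the TEAD motif. Only Hyal2 among the 5 members with an entry held the TEAD motif, and none of the 5 held the NFAT core or the AP-1 motif. In the Hyal2 window, 180 of the 250 bases lie in annotated exons of Hyal2 itself, against 0 in the Cd44 and Cemip windows. Bases in the Cd44 window were G or C in 56.4% of positions, against 75.2% in the Cemip window.

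Of the breakdown genes at the cell surface, Cemip2 rose and Hyal2 did not pass the test. Cemip2 encodes a transmembrane protein with hyaluronan-cutting activity reported in mouse. Its level was 41.1, 41.5, 40.4 and 43.6 CPM in control and 50.2, 48.3, 46.6 and 45.2 CPM in NaCl replicates 5 to 8. All NaCl libraries were above all controls, though the highest control and the lowest NaCl library were close. The mean was 41.6 ± 1.38 CPM in control and 47.6 ± 2.18 CPM with NaCl (SD, n = 4 each), a 1.14-fold rise (log2 0.19, SE 0.048, 95% interval 0.09 to 0.29, edgeR adjusted p = 0.0055). Cemip2 (ENSMUSG00000024754) lies at chr19:21778342-21858360 on the plus strand.

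Hyal2 encodes a hyaluronidase anchored to the cell surface by a lipid. Its level was 27.4, 27.7, 25.8 and 26.5 CPM in control and 27.7, 28.7, 28.6 and 27.6 CPM in NaCl libraries. The groups touched, with control replicate 2 above NaCl replicate 8. The log2 fold change was 0.07 with a 95% interval from -0.04 to 0.18 (edgeR adjusted p = 0.353). The interval spans no change. Hyal2 (ENSMUSG00000010047) lies at chr9:107567945-107572779 on the plus strand, 4147 bases before Hyal1.

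Hyal1 encodes the lysosomal hyaluronidase. Its level was 5.30, 6.19, 7.42 and 7.21 CPM in control and 4.46, 6.20, 5.45 and 5.67 CPM in NaCl libraries. The groups overlapped, since control replicate 1 was below 3 of the NaCl libraries. The log2 fold change was -0.26 (SE 0.13, 95% interval -0.54 to 0.02, edgeR adjusted p = 0.148). Without control replicate 1 it was -0.35 and just past the threshold (edgeR adjusted p = 0.04999), and with the linear term for library number it was -0.73 (edgeR adjusted p = 0.0207). Hyal1 (ENSMUSG00000010051, chr9:107576927-107581710, plus strand) shares 50.8% of its exon length with exons of Naa80 and 4.21% with exons of Hyal3, both on the same strand. Its counts are therefore uncertain. Naa80 was at 9.81 ± 1.25 CPM in control libraries, and 9.87 ± 1.50 CPM with NaCl (SD, n = 4 each, edgeR adjusted p = 0.952).

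Cemip encodes a hyaluronan-binding protein needed for hyaluronan breakdown in fibroblasts. It was at 3.04, 2.56, 3.19 and 3.48 CPM in control and 3.79, 3.12, 3.97 and 3.60 CPM in NaCl libraries. NaCl replicate 6 lay within the control range and the other 3 NaCl libraries lay above it. The log2 fold change was 0.24 (SE 0.15, 95% interval -0.07 to 0.55, edgeR adjusted p = 0.228). Cemip (ENSMUSG00000052353) lies at chr7:83932857-84086502 on the minus strand.

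**Figure D2:**
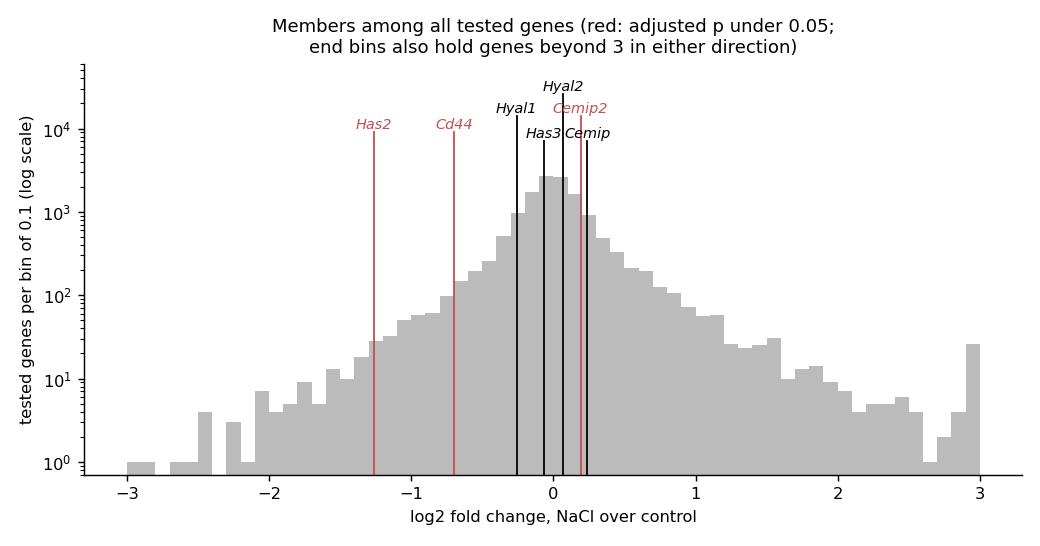
Histogram of log2 fold changes (NaCl over control) of the 14024 tested genes in bins of 0.1, with a log vertical axis. Vertical lines mark the 7 tested members, red where called. Has2 at -1.26 and Cd44 at -0.70 lie in the lower tail, and the other members lie between -0.26 and 0.24.

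Levels of different members were compared per kilobase of the exon union in the annotation. In control libraries Cd44 was highest at 16.2 ± 0.836 CPM per kb, followed by Hyal2 at 8.16 ± 0.260, Has2 at 6.14 ± 0.745, Cemip2 at 4.89 ± 0.162, Hyal1 at 1.73 ± 0.259, Cemip at 0.251 ± 0.0313, Has3 at 0.0779 ± 0.0217 and Has1 at 0.0353 ± 0.0355 CPM per kb (SD, n = 4 each). Neighbours in this order did not overlap over the libraries, except Has3 and Has1. The place of Hyal1 is uncertain, since 50.8% of its exon length is shared with Naa80 on the same strand. In NaCl libraries Cd44 was at 9.99 ± 0.395, Hyal2 at 8.55 ± 0.176, Cemip2 at 5.58 ± 0.256 and Has2 at 2.55 ± 0.540 CPM per kb (SD, n = 4 each). Has2 thus stood below Cemip2 in every NaCl library and above it in every control library on this scale. With the length of the longest protein-coding transcript in place of the exon union, Has2 and Cemip2 overlapped in control, with a Has2 to Cemip2 ratio of 0.982 in place of 1.25. In NaCl libraries that ratio was 0.460 ± 0.118 by exon union and 0.360 by longest transcript. The Has2 to Hyal2 ratio of levels per kb was 0.755 ± 0.108 in control libraries, and 0.298 ± 0.0662 with NaCl (SD, n = 4 each), a description that follows from the values of the genes above.

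**Figure D3:**
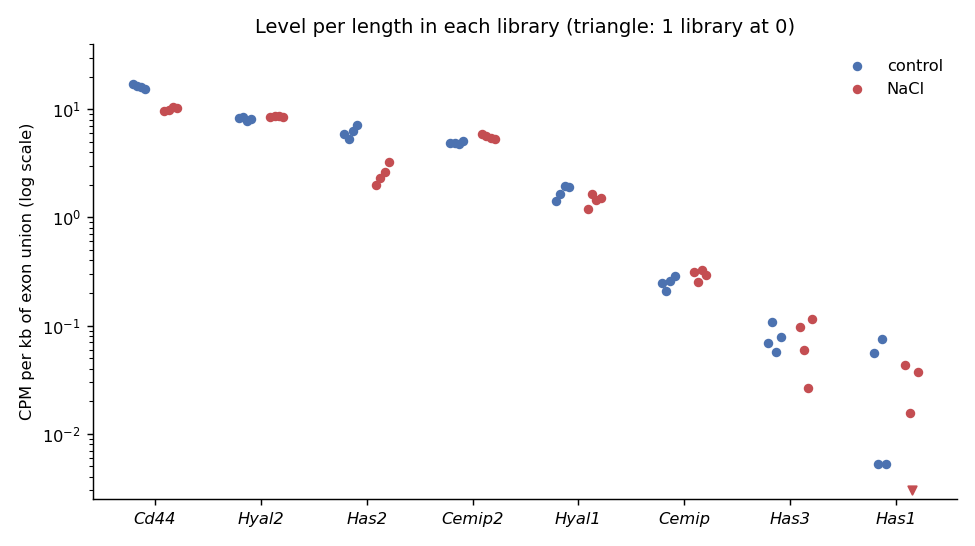
CPM per kilobase of exon union (log axis) for the 8 members, ordered by control mean. Each point is a library, blue for control and red for NaCl, and the triangle marks NaCl replicate 7, where Has1 had 0 counts. Cd44 and Has2 points shift down with NaCl, and Cd44 stays the highest member in both groups.

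Of 11 tested genes that make, move or use the UDP-sugars from which hyaluronan is built, 5 were called lower, 1 higher and 5 did not pass. Of all tested genes 17.2% were called lower and 16.9% higher. The list had a median log2 fold change of -0.14. Gfpt2, which encodes an enzyme for the entry step of the hexosamine pathway, fell from 2.80 ± 0.379 to 1.37 ± 0.181 CPM (SD, n = 4 each; log2 fold change -1.03, SE 0.18, edgeR adjusted p = 3.75e-04). Its paralog Gfpt1 fell from 142 ± 2.99 to 126 ± 3.44 CPM (log2 fold change -0.18, edgeR adjusted p = 7.58e-04). Ugdh encodes the enzyme that makes UDP-glucuronate. It was at 197, 193, 189 and 190 CPM in control and 146, 158, 161 and 150 CPM in NaCl libraries, and the groups were clearly apart. Its log2 fold change was -0.32 (SE 0.037, edgeR adjusted p = 4.46e-06). Ugp2, which makes UDP-glucose, fell with a log2 fold change of -0.14 (edgeR adjusted p = 0.0129), and Gnpnat1, a middle step of the hexosamine pathway, with -0.16 (edgeR adjusted p = 0.0229). Uxs1, which uses UDP-glucuronate to make UDP-xylose, was the gene called higher, from 62.0 ± 3.79 to 69.1 ± 2.39 CPM (log2 fold change 0.16, edgeR adjusted p = 0.0177), with overlapping groups. The Uxs1 call was lost when any one of control replicates 3 and 4 and NaCl replicates 5 and 7 was left out, with edgeR adjusted p-values from 0.0504 to 0.0638, and its log2 fold change was 0.35 with the linear term for library number. The Ugp2 call was lost without NaCl replicate 6 (edgeR adjusted p = 0.0549), and that of Gnpnat1 without NaCl replicate 6 (0.0864) or control replicate 2 (0.06). With the linear term for library number, 2 of the 11 genes were called, namely Ugdh and Uxs1. Gfpt2 had a log2 fold change of -0.92 in that fit (edgeR adjusted p = 0.0945), Ugp2 one of -0.17 (edgeR adjusted p = 0.102), Gfpt1 one of -0.15 (edgeR adjusted p = 0.0881) and Gnpnat1 one of -0.17 (edgeR adjusted p = 0.214), all close to the values without the term.

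Of the remaining breakdown enzymes, Gusb, which removes terminal glucuronate in the lysosome, had a log2 fold change of -0.10 and did not pass (95% interval -0.19 to -0.01 before adjustment, edgeR adjusted p = 0.084). Hyal3, a further hyaluronidase gene, had 18 to 24 counts in control libraries and 16 to 29 with NaCl, its groups overlapped, and it did not pass (log2 fold change 0.31, SE 0.33, edgeR adjusted p = 0.52). Its exons share 159 bases with those of Hyal1 on the same strand, so these few counts are uncertain.

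Of other hyaluronan receptors, 5 of 8 listed genes were tested and 1 was called, where 34.1% of all tested genes were called. The list had a median log2 fold change of -0.07. Tlr2, an innate immune receptor that can respond to hyaluronan fragments, rose from 10.8 ± 0.930 to 12.8 ± 1.24 CPM (SD, n = 4 each; log2 fold change 0.25, SE 0.092, edgeR adjusted p = 0.0456) with overlapping groups. That call was lost without any of 6 libraries, control replicates 1, 3 and 4 and NaCl replicates 5, 6 and 7, with adjusted p-values up to 0.137. It was also lost with limma-voom (adjusted p = 0.053) and with the linear term for library number, where the log2 fold change was 0.45 (edgeR adjusted p = 0.0571). Hmmr, a hyaluronan-binding protein better known for its role at the mitotic spindle, was at 86.1 ± 7.75 and 82.3 ± 6.29 CPM (SD, n = 4 each; log2 fold change -0.07, 95% interval -0.21 to 0.08, edgeR adjusted p = 0.495). With the linear term for library number Hmmr was called higher (log2 fold change 0.31, edgeR adjusted p = 0.0015). Lyve1, Stab2 and Susd5 were not in the table.

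Hyaluronan-binding matrix genes moved in both directions. Of 19 listed genes 12 were in the table and 9 were tested, with 2 called higher, 3 lower and 4 not past the test, where 16.9% of all tested genes were called higher and 17.2% lower. Those 9 genes had a median log2 fold change of -0.16. Without control replicate 1, 4 were called higher, with Ptx3 (log2 fold change 0.25, edgeR adjusted p = 0.0147) and Itih5 (1.87, edgeR adjusted p = 0.0206) added. In the main fit Ptx3 had 0.19 (edgeR adjusted p = 0.0568) and Itih5 1.21 (edgeR adjusted p = 0.0828). Both were also called with the centred term (edgeR adjusted p = 0.00602 and 0.0385). Ptx3 was called with the linear term (0.52, edgeR adjusted p = 0.00105) and without NaCl replicate 8 (0.0086), and Itih5 with limma-voom (adjusted p = 0.0464). With the linear term for library number the call of Habp4 was lost (log2 fold change -0.22, edgeR adjusted p = 0.0624). Without the filter on low counts all 12 were tested, 2 were called higher and 4 lower, and the median was 0.01. Vcan encodes versican, a large proteoglycan that binds hyaluronan. It was at 42.2, 35.5, 37.6 and 38.1 CPM in control and 50.9, 51.8, 51.1 and 50.1 CPM in NaCl libraries, and all NaCl libraries were above all controls. The rise was 1.33-fold (log2 0.41, SE 0.053, edgeR adjusted p = 1.48e-05). Hapln4, a link protein gene known mainly from brain, rose from 0.609 ± 0.239 to 1.55 ± 0.434 CPM (SD, n = 4 each; 2.53-fold, SE of the log2 fold change 0.32, edgeR adjusted p = 0.00353), from 14 to 41 counts per control library to 34 to 82 per NaCl library. With the linear term for library number its call was lost, at a log2 fold change of 1.07 (edgeR adjusted p = 0.265). Itih2 encodes a heavy chain that can be attached to hyaluronan in serum-exposed matrix. It fell from 5.70 ± 0.644 to 2.53 ± 0.224 CPM (SD, n = 4 each; log2 fold change -1.17, SE 0.13, edgeR adjusted p = 3.97e-06). The other genes called lower were C1qbp (log2 fold change -0.37, edgeR adjusted p = 2.86e-05), whose protein is mainly mitochondrial, and Habp4 (-0.16, adjusted p = 0.00929), whose protein binds RNA inside the cell, so neither is a typical matrix gene. Tnfaip6, which encodes the enzyme that attaches heavy chains to hyaluronan, had a log2 fold change of -0.41 and did not pass (edgeR adjusted p = 0.287).

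Among ligands, partners, sheddases and splicing factors of CD44, 19 of 20 listed genes were tested, and 5 were called, 2 higher and 3 lower. Over all tested genes 34.1% were called. With the linear term for library number 6 of the 19 were called, 1 higher and 5 lower, beside 24.1% of all genes. The linker gene Ank3 did not pass (log2 fold change -0.22, edgeR adjusted p = 0.0712). It was called lower with the linear term (-0.71, edgeR adjusted p = 1.11e-05) and with the centred term (edgeR adjusted p = 0.0012). The same held without control replicate 1 (0.0316) or NaCl replicate 8 (0.00838). The 19 genes had a median log2 fold change of -0.0063. Met encodes the hepatocyte growth factor receptor, for which some CD44 forms act as a co-receptor. It was at 188, 196, 210 and 215 CPM in control and 317, 317, 318 and 342 CPM in NaCl libraries, with a wide gap between the groups. The log2 fold change was 0.68 (SE 0.043, edgeR adjusted p = 4.26e-09). Esrp2, an epithelial splicing factor known to act on variable exons of CD44, rose from 35.5 ± 3.27 to 45.7 ± 2.98 CPM (SD, n = 4 each; log2 fold change 0.36, SE 0.066, edgeR adjusted p = 4.73e-04), but was not called with the linear term for library number (edgeR adjusted p = 0.395). Its paralog Esrp1 had at most 15 counts in any library. Timp1, an inhibitor of metalloproteases, fell from 55.5 ± 2.05 to 32.4 ± 1.29 CPM (log2 fold change -0.78, SE 0.048, edgeR adjusted p = 3.09e-09). Mmp14, a membrane protease that can cut CD44, fell from 268 ± 12.2 to 222 ± 7.15 CPM (log2 fold change -0.27, SE 0.038, edgeR adjusted p = 3.71e-05). Msn, which encodes the cortical linker moesin, was called lower with a log2 fold change of -0.11 and overlapping groups (edgeR adjusted p = 0.0337). The Msn call was lost when any one of control replicates 3 and 4 and NaCl replicates 5, 6 and 7 was left out (edgeR adjusted p from 0.0608 to 0.104). Its relatives Ezr and Rdx had log2 fold changes of 0.02 and -0.01 and did not pass. Spp1, a secreted ligand of CD44, was at 10108 ± 720.3 and 10541 ± 982 CPM (SD, n = 4 each; log2 fold change 0.06, 95% interval -0.09 to 0.21, edgeR adjusted p = 0.541). With the linear term it was called lower (log2 fold change -0.25, edgeR adjusted p = 0.0118).

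**Figure D4:**
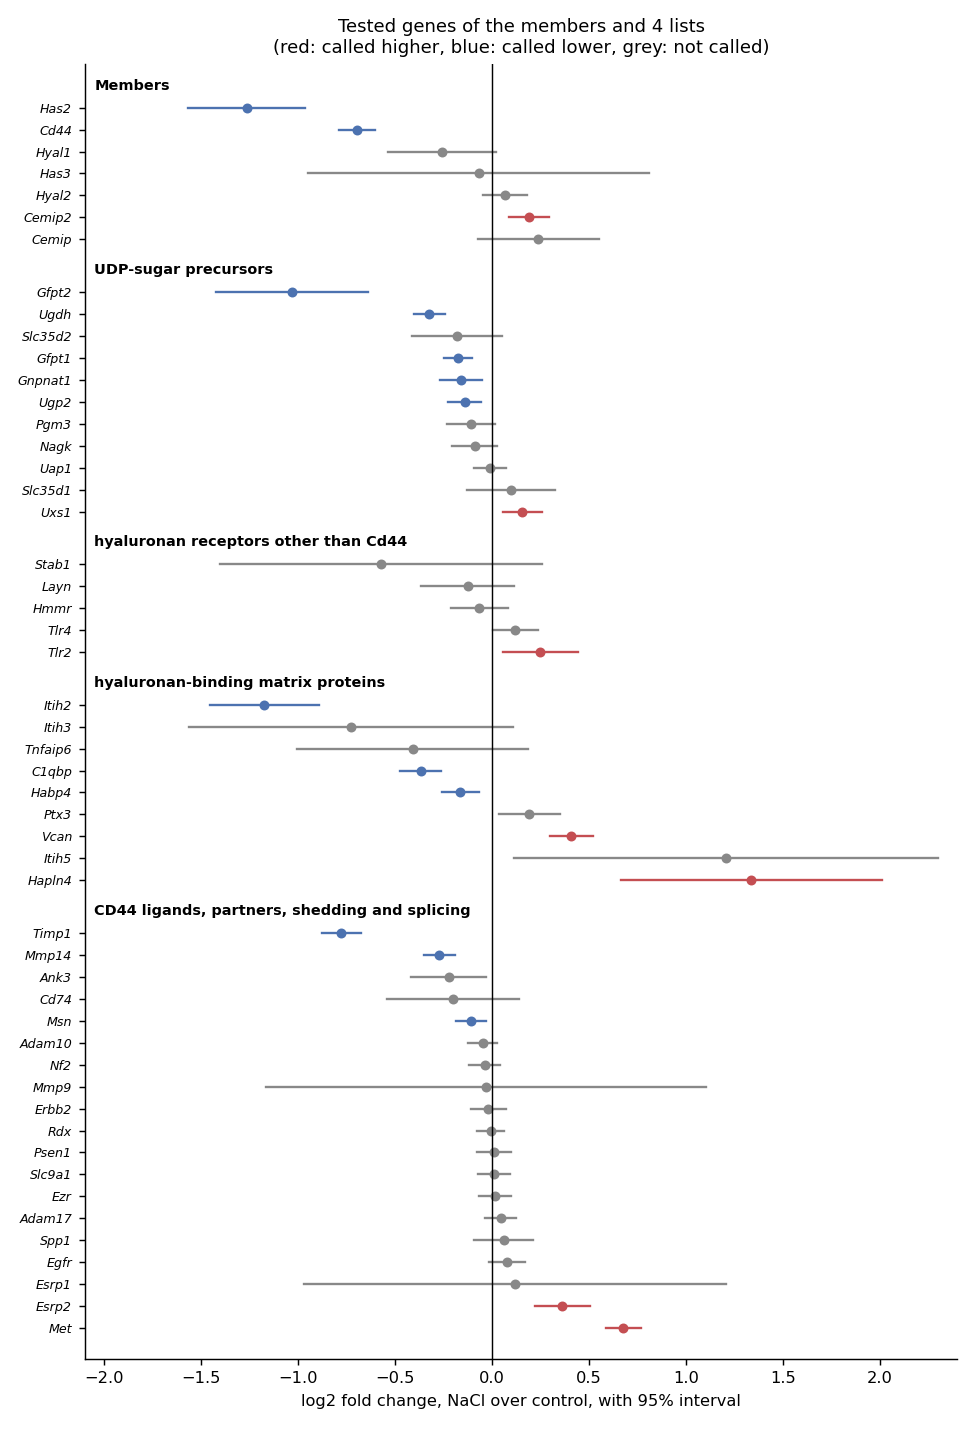
Log2 fold change (NaCl over control, points) with its 95% interval (lines) for the tested members and the tested genes of 4 related lists (precursors, receptors, matrix proteins, and ligands and partners of CD44). Colours mark genes called higher (red), called lower (blue) and not called (grey). Has2, Itih2 and Gfpt2 lie at or below -1.03, and Met at 0.68 and Hapln4 beyond it lie on the other side.

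Markers of other cell types were set beside these results. Over all tested genes, 16.9% were called higher and 17.2% lower. The fibroblast and interstitial list, whose cells make hyaluronan in the medulla, had 7 of 8 genes in the table, without Lum. Of its 7 tested genes, 1 was called higher (Pdgfrb) and 2 were called lower (Col1a1 and Pdgfra). The summed level of the list ran from 3140 to 3647 CPM in control and from 2831 to 3264 CPM in NaCl libraries. The leukocyte list had 3 of 6 genes in the table, all tested, with Ptprc called higher. Its sums ran from 66.2 to 81.9 CPM in control and 79.9 to 92.1 CPM in NaCl libraries. Adgre1, Itgam and Lyz2 were not in the table. The endothelial list had 2 of 5 genes in the table, both under 1 CPM in every library. Of 12 tested genes of the duct epithelium list, 2 were called higher and 3 lower (Gata3, Hoxb7 and Tfcp2l1). The 2 called higher, Avpr2 and Cdh1, were near the floor, at 0.108 and 0.195 CPM in control. The sums of the duct list ran from 864 to 1099 CPM in control and from 826 to 1000.5 CPM in NaCl libraries. The part of these differences in the results for Has2, Cd44 and Cemip2 was not tested.

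Profiles most like those of Has2, Cd44 and Hyal2 were taken over the 8 libraries as the root-mean-square difference of log2 CPM, each gene relative to its own control mean, among the 10110 tested genes whose mean log2 CPM was 3 or more. For Cd44 these were Plk2 at a difference of 0.033, Timp1 at 0.064 and Adamts4 at 0.066, with log2 fold changes of -0.72, -0.78 and -0.64. For Has2 they were Atp6v0a4 at 0.12, Pamr1 at 0.14 and Kng2 at 0.19, with log2 fold changes of -1.27, -1.15 and -1.12. For Hyal2 they were Axin1 at 0.017, Babam1 and Rnf216, both at 0.023, none of which was called. The closest profile to Has2 was thus farther away than the third closest to Cd44.

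**Figure D5:**
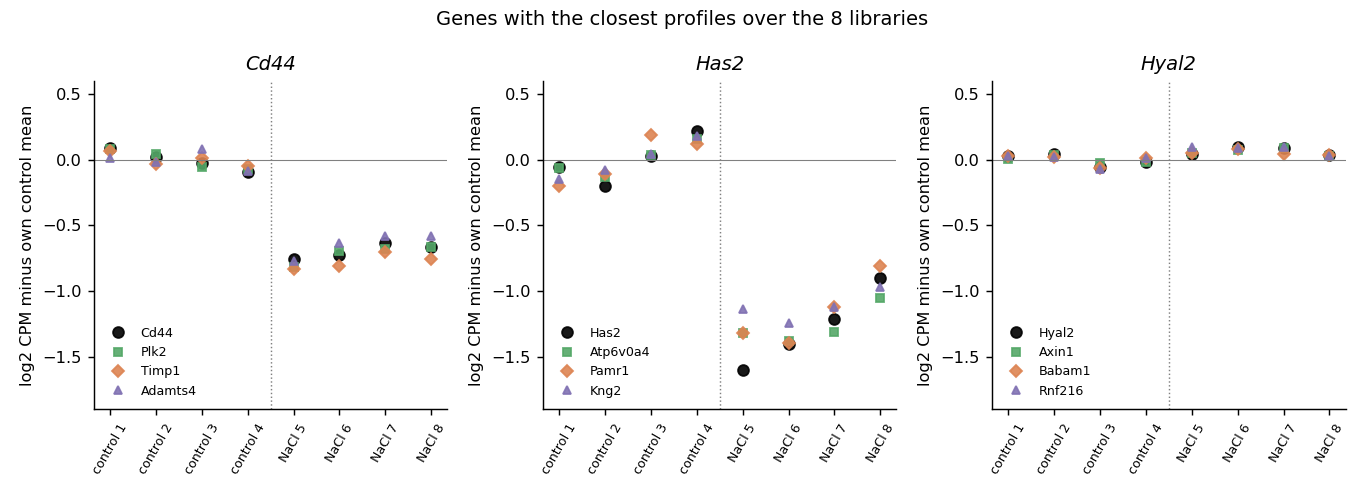
Log2 CPM minus the gene's own control mean (vertical axis) in each of the 8 libraries (horizontal axis) for Cd44, Has2 and Hyal2 and the 3 genes closest to each. Each symbol is a gene in a library, and the dotted line separates the groups. The Has2 set spreads within both groups, where the Cd44 and Hyal2 sets stay tight.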

How the data were processed

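The members, the related gene lists, the tests and the alternatives were chosen with earlier results of these data known. The authors deposited raw counts for each Ensembl gene, the input to every test, and a normalized table not used here. The submitters' processing notes name Trim Galore 0.6.7, STAR, DESeq2 1.34.0 and mm10, without their roles. The counting program, annotation and strandedness are not given in the sources used here.

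Genes low in counts were removed with edgeR 4.0.16 (R 4.3.3; filterByExpr, minimum count 10), which took out 1264 genes and 0.0191% of counts. The test was edgeR's robust quasi-likelihood test of group after TMM scaling, with Benjamini-Hochberg adjustment over all tested genes and a threshold of 0.05. It was checked on simulated data. Standard errors are the absolute log2 fold change over the root of F. Floors are 3 counts per library and cover counting error only, since PCR copies are not independent molecules.

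All members were named. From each list came the called genes, or, where over 4 were called, the 2 highest and 2 lowest by log2 fold change. The 3 closest profiles to Has2, Cd44 and Hyal2 were added. For the list of other breakdown enzymes, 1 gene is not reported here. Other genes in the text were named after their values were seen. Lengths and overlaps came from GENCODE M21 (GRCm38, also called mm10), shared sequence from blastn 2.17.0 and promoter windows from RefSeq (GRCm38.p6).

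Alternatives were median-of-ratios factors, library totals, no filter, at least 10 counts in every library, DESeq2 1.42.0, limma-voom (limma 3.58.1), a threshold of 0.01, library number as a linear or centred term, and leaving out each library. The longest transcript as the length was added after seeing the data.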

Additional observations from a re-analysis of the deposited data

Results flagged for a closer look

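Among 44 groups of 4 libraries examined for the named genes, 3 had an extreme library far from the rest. Chance gives this in about 1 in 20 groups, or 2.2 of them. None of the 3 was in a member. NaCl replicate 7 gave 2.86 CPM for Itih2, against 2.40 to 2.44 CPM in the rest of its group, and leaving it out moved the log2 fold change from -1.17 to -1.24. For Mmp14, NaCl replicate 5 gave 211 CPM against 225 to 226 CPM, and the log2 fold change moved from -0.27 to -0.25 when it was left out. For Met, NaCl replicate 8 gave 342 CPM against 317 to 318 CPM, and the log2 fold change moved from 0.68 to 0.65 when it was left out.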

How the results depend on the processing

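Over 118 refits of the 7 tested members, 113 kept direction and side of the threshold. This count, and that of list genes below, includes the threshold of 0.01, which reuses the main fit. Direction could not change there, and members not called could not change side. Has2, Cd44, Cemip2, Hyal2 and Cemip kept both in all 17 alternatives. The log2 fold change ran from -1.91 to -1.17 for Has2, from -0.73 to -0.64 for Cd44 and from 0.17 to 0.25 for Cemip2. Has3, which never passed, changed sign in 3 refits, with log2 fold changes from -0.38 to 0.21 when single libraries were left out, and at least 10 counts in every library removed it from the test. Hyal1 passed in 2 refits (given with its values above). Of 238 refits of the 14 list genes that the naming rule gave, 218 kept direction and call and 20 lost the call, none changed sign. An adjusted p threshold of 0.01 left 3145 called genes over the table, 3 in the UDP-sugar list and 0 among other receptors. Library number as a linear term left 2 in the UDP-sugar list. The library number centred within groups gave 2 among other breakdown enzymes in place of 1. Limma-voom gave 0 other receptors, and leaving out single libraries gave 0 to 1. The Has2 to Cemip2 ratio in control moved to 0.982 with the longest transcript. No paired analysis was possible because the groups share no library numbers. Depth limits what can be said of Has1 and Has3. The cause of these moves was not tested.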

Other observations

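Of the hyaluronan-binding matrix genes, 3 were in the table but were removed by the filter on low counts. Their tests come from the fit without that filter. Itih1, a heavy chain gene like Itih2, was counted 9, 10, 16 and 6 times in control replicates 1 to 4 and 0, 0, 3 and 3 times in NaCl replicates 5 to 8, and was called lower in that fit (log2 fold change -2.59, SE 0.82, edgeR adjusted p = 0.0219). With counts this low, the size of that fold change depends on the fit's prior count. Hapln3 was counted 5, 8, 1 and 10 times without NaCl and 23, 9, 6 and 3 times with it, and was not called (log2 fold change 0.90, edgeR adjusted p = 0.38). Itih4 was counted 10, 9, 6 and 2 times without NaCl and 13, 9, 4 and 11 times with it, and was not called (log2 fold change 0.57, edgeR adjusted p = 0.526).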
